A study of Mus musculus with 4 samples.

Results

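The type I interferon response genes described here are 30 genes that cells switch on after interferon reaches them. They were chosen by gene symbol with earlier results of these data in view, in which interferon-induced transcripts of enterocytes stood highest in 1 of the 4 libraries, so the levels by library below are a description and carry no test. All 30 symbols were found among the 32285 genes of the count table, and the table was read in 25788 of 44277 barcodes.

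The study sorted viable cells of the jejunal and ileal epithelial layer of male C57BL/6J mice, without Peyer's patches, and counted transcripts with a droplet assay that reads 3′ ends and marks each molecule with a unique molecular identifier (UMI). All mice, controls included, received high-fat feed together with l-NAME, which blocks nitric oxide synthases, from 8 weeks of age for 7 weeks, until 15 weeks of age. The IPA group (2 samples) had 562.5 mg indolepropionic acid, a tryptophan metabolite of gut bacteria, per kg of that diet, and the con group (2 samples) had the same diet without it. Each sample pooled 2 mice. Barcodes carry a number from 1 to 4 for their library, and the sources used here do not say which number is which sample, so no library was assigned to a diet, no IPA and con values were compared and no p-value was computed. Where libraries differ, diet, animals and preparation cannot be told apart.

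Type I interferons are secreted proteins that bind a receptor of the subunits Ifnar1 and Ifnar2, and type III interferons act on epithelia through Ifnlr1 and Il10rb. Both activate the kinases Jak1 and Tyk2 and a transcription factor complex with Stat2 and Irf9 that binds the interferon-stimulated response element (ISRE) in promoters. The genes switched on encode antiviral effectors, sensors of foreign nucleic acid and regulators of the response itself, and in the intestine the epithelium is known to answer type III interferon strongly. Because both kinds of interferon induce largely the same genes, the list does not tell them apart.

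Cells were assigned to classes by marker genes, and the class names below stand for those marker gates. Enterocytes, the absorptive cells of the villus, numbered 4752, 4990, 3520 and 5332 in libraries 1 to 4, with a median of 28526, 28115, 30140 and 26175 UMIs. Epcam, an epithelial surface protein, had a UMI in 97.9% to 99.7% of them. Ptprc, which marks leukocytes, had one in 1.24% of the enterocytes of library 1 and in 5.45% of those of library 3, against 0% in library 2 and 0.0188% in library 4. The libraries shared between 5 and 20 kept barcodes per pair. Levels are given as counts (CPM) scaled to 1e6 of the summed UMIs of a class in 1 library, and intervals are 95% Poisson or exact binomial intervals that cover counting error only.

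The promoter windows of 4 members are shown because they carry, or lack, the letters of the element through which these genes are induced. Windows run from 250 bases before to 50 bases after the annotated start, 5′ to 3′ on the gene's strand, from RefSeq on the GRCm38.p6 build, and capitals mark matches to GAAANNGAAA or its reverse complement TTTCNNTTTC. Isg15 lies at chr4:156200769-156201068 on the minus strand, Ifit1 at chr19:34640639-34640938 on the plus strand, Rsad2 at chr12:26456403-26456702 on the minus strand and Cmpk2 at chr12:26468965-26469264 on the plus strand.
Isg15: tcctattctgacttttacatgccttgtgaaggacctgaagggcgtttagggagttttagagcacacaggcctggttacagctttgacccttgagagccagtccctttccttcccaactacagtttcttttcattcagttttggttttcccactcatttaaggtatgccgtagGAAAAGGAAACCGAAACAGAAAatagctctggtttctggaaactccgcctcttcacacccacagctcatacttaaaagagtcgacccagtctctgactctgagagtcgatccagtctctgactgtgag
Ifit1: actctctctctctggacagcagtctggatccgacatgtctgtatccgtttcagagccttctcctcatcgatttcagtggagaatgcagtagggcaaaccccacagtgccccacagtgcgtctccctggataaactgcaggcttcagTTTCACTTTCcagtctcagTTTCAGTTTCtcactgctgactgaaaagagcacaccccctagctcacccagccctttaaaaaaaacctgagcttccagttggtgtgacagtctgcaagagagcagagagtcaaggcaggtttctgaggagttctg
Rsad2: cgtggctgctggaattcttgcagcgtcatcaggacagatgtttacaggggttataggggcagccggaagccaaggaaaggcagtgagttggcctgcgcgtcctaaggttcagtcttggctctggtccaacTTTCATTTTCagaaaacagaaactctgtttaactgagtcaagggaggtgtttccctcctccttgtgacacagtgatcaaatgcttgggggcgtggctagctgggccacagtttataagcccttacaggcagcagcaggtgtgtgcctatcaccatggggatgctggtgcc
Cmpk2: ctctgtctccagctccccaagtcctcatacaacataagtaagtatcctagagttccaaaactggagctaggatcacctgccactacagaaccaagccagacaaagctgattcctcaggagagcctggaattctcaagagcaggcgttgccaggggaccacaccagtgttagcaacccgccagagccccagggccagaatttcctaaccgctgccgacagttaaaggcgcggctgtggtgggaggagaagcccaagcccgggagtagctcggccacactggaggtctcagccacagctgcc
In Isg15 the 3 matches start 78, 72 and 66 bases before the start and overlap each other, so they read as 1 run of capitals. Ifit1 held 2 matches on the opposite strand, Rsad2 held 1 and Cmpk2 held none. Of the 30 members 23 had a window by symbol, and 15 of those 23 (65.2%) held a match, against 1079 of 27025 genes (3.99%) in the same table. Windows of Irf7, Irf9, Ifit2, Oasl2, Ifi44, Xaf1, Rnf213 and Cmpk2 held none, which says only that these letters are not in those 300 bases. Oas2, Ifi27l2b, Zbp1, Usp18, Rtp4, Dhx58 and Parp14 had no window. In 21 of 28 windows the bases after the start were found, as printed, in a GENCODE M21 transcript of the same gene.

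All 30 members were highest in the enterocytes of library 1, and 25 of the 30 were at least 2-fold higher there than the median of the other 3 libraries, on a log2 scale of CPM plus 1. With no minimum on the level, as in that count, 0.437% of all genes passed. The summed level of all 30 was 3693 CPM in library 1, against 1266, 1630 and 1431 CPM in libraries 2 to 4. Ifi27l2b, a small interferon-induced protein of membranes, made up 50.6% of that sum in library 1 and 70.2% to 75.5% in the other libraries. Without it, the other 29 summed to 1824 CPM in library 1, against 320, 486 and 350 CPM in libraries 2 to 4. Library 1 was the highest library for 21.1% of all 6396 genes with a mean of at least 10 CPM, the minimum for calling a gene measured.

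Of the members 22 reached that minimum, 7 of them only through library 1. In library 1, 17 of the 22 were at least 2-fold higher and 0 lower than the median of the other 3 (0.688% and 0.156% of all measured genes). With the minimum set on libraries 2 to 4 alone, 15 members reached it and 10 of these were 2-fold higher in library 1, against 0.516% of genes. The median log2 ratio of the 22 was 2.16, and that of all measured genes was -0.01. The members just below the minimum were Oas1a, Rsad2 and Usp18, at a mean of 7.11, 8.39 and 8.62 CPM over the libraries. Those just above it were Ifit3, Trim30a and Oas3, at 11.2, 12.4 and 12.6 CPM. These counts follow from the way the genes were chosen and are not evidence of a response beyond it.

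**Figure D1:**
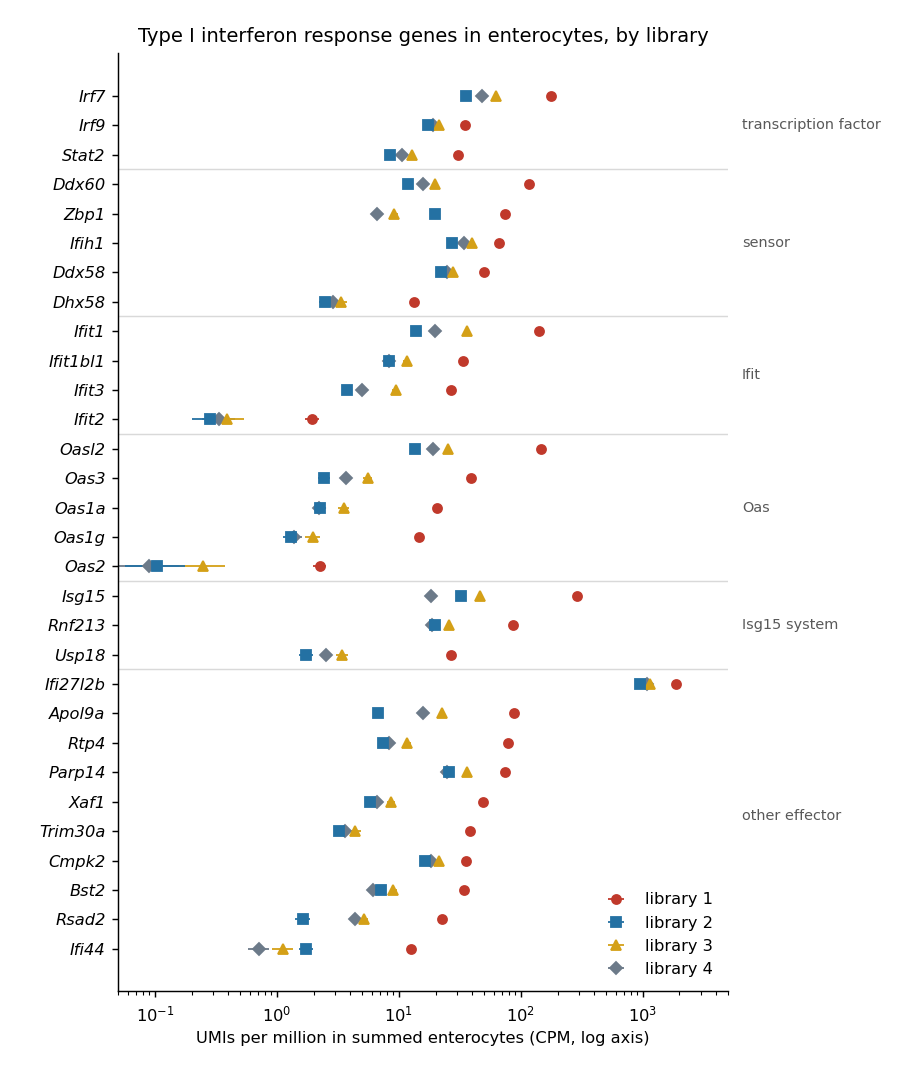
Each row is 1 member, grouped by role, and each symbol is its level in the summed enterocytes of 1 library (CPM, log axis) with a 95% Poisson interval. The red circles of library 1 lie to the right of the other symbols in all 30 rows, from a narrow gap for Irf9 and Ifi27l2b to a wide one for Isg15 and Trim30a.

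Among the transcription factors, Irf7, which amplifies interferon transcription, was at 175.6 CPM in library 1 and at 35.3, 62.7 and 48.3 CPM in libraries 2 to 4. Stat2, a subunit of the complex that binds the ISRE, was at 30.4 CPM in library 1, against 8.40, 12.8 and 10.6 CPM. Irf9, the DNA-binding subunit of that complex, was at 34.9 CPM in library 1, against 17.4, 21.3 and 19.1 CPM. The log2 ratio of library 1 was thus 1.84 for Irf7, 1.44 for Stat2 and 0.84 for Irf9, and no other library overlapped it within the counting intervals.

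All 5 sensors were higher in library 1, by different amounts. Ddx60, a helicase reported to aid sensing of viral RNA, was at 117.0 CPM in library 1, against 11.9, 19.9 and 15.6 CPM in libraries 2 to 4. Zbp1, which binds nucleic acid in the Z form and can start cell death, was at 74.8 CPM in library 1, against 19.8, 9.15 and 6.67 CPM. Zbp1 and Ifi44, an interferon-induced protein of uncertain function, were the 2 members for which library 2 came next after library 1. Ifih1 (MDA5), a sensor of long double-stranded RNA, was at 66.3 CPM in library 1, against 27.4, 39.4 and 34.3 CPM. Ddx58 (RIG-I), which recognises RNA with triphosphate ends, was at 50.2 CPM in library 1, against 22.2, 27.6 and 24.8 CPM. The log2 ratio of library 1 was 2.82 for Ddx60 and 2.90 for Zbp1, against 0.93 for Ifih1 and 0.99 for Ddx58. Dhx58 (LGP2), a relative of both, stayed under the minimum, with 13.3 CPM in library 1 and 2.48 to 3.34 CPM in the others.

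The Ifit genes, whose proteins bind viral RNA, lie within 99.3 kb of chromosome 19. Ifit1 was at 139.7 CPM in library 1, against 13.8, 36.2 and 19.8 CPM in libraries 2 to 4. Ifit3 was at 26.8 CPM in library 1, against 3.74, 9.43 and 5.01 CPM, and Ifit1bl1 at 33.8 CPM, against 8.28, 11.6 and 8.27 CPM. Their log2 ratios in library 1 were 2.76, 2.21 and 1.91. Ifit2 stayed under the minimum, at 1.94 CPM in library 1 and 0.283 to 0.388 CPM in the others. Ifit3 has a near-identical copy in Ifit3b, so the split of reads between them is uncertain.

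The Oas genes encode enzymes that make oligoadenylates, which activate RNase L, and Oas1a, Oas1g, Oas2 and Oas3 lie within 177.2 kb of chromosome 5. Oasl2, a related gene elsewhere on that chromosome, was the most abundant, at 147.2 CPM in library 1, against 13.5, 25.5 and 18.9 CPM in libraries 2 to 4. Oas3 was at 38.8 CPM in library 1, against 2.42, 5.56 and 3.71 CPM, a log2 ratio of 3.08. Oas1a and Oas1g, near-identical copies, were at 20.5 and 14.6 CPM in library 1 and at no more than 3.53 and 1.96 CPM in the others. Oas2 was at 2.24 CPM in library 1 and at no more than 0.248 CPM in the others.

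Isg15, a ubiquitin-like protein that is attached to other proteins and also secreted, had the largest log2 ratio of the 22 measured members, 3.14. It was at 291.1 CPM (288.0 to 294.1) in library 1, against 32.1, 46.2 and 18.5 CPM in libraries 2 to 4. Usp18, which removes Isg15 from its targets and dampens signalling at Ifnar2, was at 26.8 CPM in library 1, against 1.74, 3.40 and 2.52 CPM. Rnf213, a large ubiquitin ligase that binds proteins carrying Isg15, was at 85.8 CPM in library 1, against 19.9, 25.6 and 18.8 CPM.

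Of the 10 remaining effectors, Rtp4, a transmembrane protein that inhibits viral replication, was at 78.3 CPM in library 1, against 7.36, 11.8 and 8.31 CPM in libraries 2 to 4. Trim30a, a TRIM family protein of the mouse, was at 38.4 CPM in library 1, against 3.24, 4.40 and 3.62 CPM. Their log2 ratios of 3.09 and 3.10 were the next largest after that of Isg15. Apol9a, an apolipoprotein L family member with a near-identical copy in Apol9b, was at 87.3 CPM in library 1, against 6.79, 22.4 and 15.7 CPM. Xaf1, a protein that promotes cell death, was at 49.4 CPM in library 1, against 5.82, 8.61 and 6.56 CPM. Bst2 (tetherin), which holds budding virus at the cell surface, was at 34.2 CPM in library 1, against 7.19, 8.99 and 6.16 CPM. Parp14, an ADP-ribosyltransferase, was at 73.7 CPM in library 1, against 25.7, 36.2 and 24.8 CPM.

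Rsad2 (viperin) and Cmpk2, a nucleotide kinase of mitochondria, are neighbours whose starts lie 12.8 kb apart on chromosome 12, and their levels differed in shape. Rsad2 was at 22.4 CPM in library 1, against 1.63, 5.13 and 4.35 CPM in libraries 2 to 4. Cmpk2 was at 35.6 CPM in library 1, against 16.3, 21.1 and 18.4 CPM. Rsad2 thus had a log2 ratio of 2.13 and held an ISRE-like match in the window printed above, while Cmpk2 had 0.91 and held none. Other members paired otherwise. Oasl2 and Xaf1 held no match at ratios of 2.90 and 2.74, and Ifih1 and Ddx58 held 1 each at 0.93 and 0.99. Whether match and ratio go together was not tested. Ifi27l2b was the most abundant member in all 4 libraries and had the smallest ratio, 0.79, at 1870 CPM in library 1, against 945.6, 1144 and 1081 CPM. Ifi44 was at 12.5 CPM in library 1, against 1.74, 1.12 and 0.710 CPM.

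The order of the other libraries, from high to low, was 3, 4 and 2 for 21 of the 30 members. Of all measured genes, 39.5% were lowest in library 2 and 17% in library 4. The share of all genes with the same full order was not computed, so the order is given as description. Library 3 came after library 1 for 28 members, and the lowest level was in library 2 for 21 members and in library 4 for 9. Villus position was not held fixed in this order. In bins of villus zone common to all libraries, the 29 members without Ifi27l2b summed higher in library 2 than in library 4 throughout. The sums were 266.4 against 211.9 CPM at the base and 803.2 against 694.8 CPM at the tip. With bins set within each library, library 2 was higher in the base bin only. In library 2, 1 measured member was 2-fold higher than the median of the other 3 (Zbp1) and 3 were lower (Ifit1, Ifit3 and Apol9a), with 0.328% of measured genes higher and 0.938% lower. In library 3, 0 members were 2-fold higher and 1 was lower (Zbp1), with 0.391% of genes higher and 0.109% lower. In library 4, 0 were higher and 2 lower (Isg15 and Zbp1), with 0.0782% of genes higher and 0.407% lower. The neighbours in this order were close for many members, and the counting intervals of libraries 2 and 4 overlapped for Ifit1bl1, for example, at 8.28 and 8.27 CPM. With library 1 left out of the comparison, the members lower in libraries 2 to 4 numbered 1, 0 and 2, and those higher numbered 1, 1 and 0. With library 1 kept and another library left out, 16 or 17 were lower in library 2, 12 in library 3 and 15 or 16 in library 4, since library 1 then weighs more in the median. Shares of all genes are not given for the counts with a library left out, so these are not read as a result about the members.

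Of the genes that act before the members, no interferon was measured in enterocytes. Of 20 interferon genes 15 had 0 UMIs in all 4 libraries, which allows up to 0.0249, 0.0224, 0.0323 and 0.0224 CPM in libraries 1 to 4, and the most abundant, Ifnk, had 12 UMIs in all. Ifng, the type II interferon, had 1 UMI in the enterocytes of library 1 and 5 in those of library 3, against 26 and 134 UMIs in T cells of the same libraries. Of 9 receptor subunits and kinases 8 were measured and 0 passed 2-fold in any library. Between 0.0782% and 0.938% of all measured genes passed in a given library and direction, so 0 of 8 says little about these genes. Ifnar1 was at 16.4 CPM in library 1 and at 16.5, 17.3 and 15.4 CPM in libraries 2 to 4. Ifnlr1, the type III subunit, was at 11.3 CPM in library 1 and at 7.21, 11.2 and 8.58 CPM in the others.

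Of 31 measured interferon-stimulated genes outside the 30, 10 were 2-fold higher in library 1 and 0 lower, with a median log2 ratio of 0.78. Of all measured genes, 0.688% were 2-fold higher in library 1 and 0.156% lower. This list and those below were, like the members, chosen with earlier results of these data known, so the counts are a description. Herc6, a ligase for Isg15 in the mouse, was at 32.2 CPM in library 1, against 4.57, 7.11 and 3.94 CPM in libraries 2 to 4. B2m, the light chain of MHC class I, was at 1625 CPM in library 1, against 964.9, 1204 and 1020 CPM, and did not pass 2-fold. Of 3 measured genes of a list of GTPases and regulators induced by interferon gamma, 2 passed (Igtp and Ifi47), while Irf1, at 71.6 CPM in library 1 and 73.8, 63.4 and 48.2 CPM in the others, did not. Of 8 measured stress genes 0 passed in any library, which says little, as at most 0.938% of all measured genes passed in a given library and direction.

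Of the 44 measured genes that were 2-fold higher in library 1, 17 were members. Of the others, the 10 with the largest ratio were Igkc, Igha, Jchain, Saa1, Ccl5, Gzma, Herc6, Reg3b, Reg3g and Apol9b. Only Igkc, Igha, Herc6 and Apol9b of these were highest in library 1. Ccl5, Gzma and Jchain were higher in library 3, at 56.6, 43.9 and 44.6 CPM against 9.02, 5.22 and 39.8 CPM in library 1. Saa1 and Reg3g were higher in library 2, at 27.7 and 6702 CPM against 17.7 and 2667 CPM in library 1. Igkc, an antibody light chain, was at 466.6 CPM in the enterocytes of library 1 and at 372.7 CPM in those of library 3, against 4.73 and 4.74 CPM in libraries 2 and 4. Reg3b, an antimicrobial lectin, was at 10241 CPM in library 1, above libraries 3 and 4 at 1202 and 1833 CPM and below library 2 at 25725 CPM. The 13 T cell markers summed to 23.7, 1.01, 144.3 and 1.67 CPM in enterocytes of libraries 1 to 4, and 5, 0, 11 and 1 of them reached 1 CPM. With all enterocytes that held any UMI of an immune marker left out, 20 of 23 measured members were 2-fold higher in library 1, against 3.05% of genes. That left 104, 202, 125 and 164 cells in libraries 1 to 4, with a median of only 2850, 1885, 966 and 5040 UMIs, and the part of immune transcripts in the levels was otherwise not tested. The filter was broad. The plasma cell markers in it summed to 170.4 and 151.8 CPM in enterocytes of libraries 2 and 4, where Ptprc was at 0 and 0.0149 CPM. A removed cell therefore need not have held immune RNA.

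Enterocytes were next compared cell by cell, with each cell thinned to 5000 UMIs and shallower cells left out, which kept 4430, 4680, 3210 and 5155 cells of libraries 1 to 4. At least 1 of the 29 members without Ifi27l2b had a UMI in 96.8% (96.3 to 97.3) of the library 1 cells. Libraries 2 to 4 had shares of 69.0%, 78.1% and 70.9%. Before thinning these shares were 100% in library 1 and 98.6%, 99.5% and 98.8% in the others. At least 5 members had a UMI in 66.4% (65.0 to 67.8) of the cells of library 1, against 3.89%, 10.2% and 5.72%. At least 10 had a UMI in 26.2% (24.9 to 27.5) of the cells of library 1, which was 1160 cells. In libraries 2 to 4 that share was 0.919% (43 cells), 2.31% (74) and 1.11% (57). No class here is known to lack these genes, so the share that free RNA adds was not measured.

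The difference between libraries was thus a shift of most cells in library 1 and a thin tail in the others. The median cell held 9 UMIs of the 29 members in library 1, against 1, 2 and 1 UMIs in libraries 2 to 4. The highest single cells were closer, with 115 UMIs in library 1, against 86, 75 and 85. The 10% of cells with the most held 31.3% of these UMIs in library 1, against 45.8%, 48.2% and 46.3%. In libraries 2 to 4 Isg15 had a UMI in 88.2%, 88.7% and 76.5% of the few cells that held at least 8 of the other members, against 8.3%, 8.8% and 5.4% of the remaining cells. Those cells numbered 51, 97 and 81, and they held 41.1%, 59.1% and 44.0% of all Isg15 UMIs of their libraries. Ifit1 was concentrated in the same way, with 50.4%, 66.1% and 58.9% of its UMIs in such cells, while Irf9 had 2.6%, 7.1% and 3.3% of its UMIs there. In the top of 5 bins of villus position lay 53.4%, 9.30%, 39.2% and 31.6% of the cells with at least 10 members in libraries 1 to 4, against 25.8%, 4.10%, 31.3% and 16.7% of all cells. In library 2 most of these cells lay elsewhere, with 37.2% of them in the base bin, where 52.0% of all its cells were. Of the cells with at least 10 members, 12 in library 1 and 1 in library 2 shared a barcode with another library, and 0 in libraries 3 and 4.

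**Figure D2:**
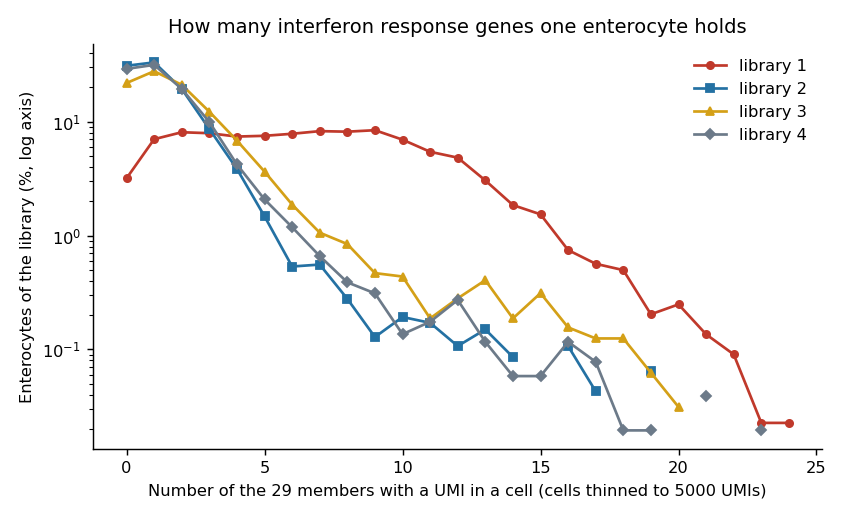
The horizontal axis is the number of the 29 members with a UMI in a cell thinned to 5000 UMIs, and the vertical axis is the percentage of the library's enterocytes (log axis); a gap means that no cell had that number. Library 1 lies between 6.95% and 8.42% from 1 to 10 members and reaches 24, and the other libraries fall steeply and then run out in a thin tail to 19, 20 and 23 members.

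Along the villus the members were higher at the tip than at the base in all 4 libraries. Enterocytes were split into 5 bins by tip markers minus base markers, none of them a member. The 29 members summed to 697.8, 1186, 1947, 2892 and 3846 CPM from bin 1 at the base to bin 5 at the tip in library 1. In library 2 the same bins held 266.4, 319.2, 460.0, 559.8 and 803.2 CPM, in library 3 they held 288.7, 224.0, 407.5, 562.5 and 880.7 CPM, and in library 4 they held 211.9, 203.2, 325.4, 397.5 and 694.8 CPM. The ratio of tip to base was 5.51 in library 1 and 3.02, 3.05 and 3.28 in libraries 2 to 4. With bins set within each library, an alternative chosen after seeing the data, the ratio was 1.83 in library 2 and 4.84, 3.70 and 3.26 in libraries 1, 3 and 4. Bin 2 was slightly below bin 1 in libraries 3 and 4, and with bins set within each library it was in library 2, at 250.9 against 296.1 CPM. The base bin of library 1, at 697.8 CPM, lay close to the tip bins of the other libraries. Cells of the tip bin were shallow, with a median of 9042.5 UMIs in library 1 against 35979.5 in its base bin. Library 2 had 251 cells at the tip and 2496 at the base. Depth and Reg3b, a base marker, thus move with the bins. Bins set by the tip markers alone were also chosen after seeing the data. Their ratios of tip to base were 6.88, 3.11, 4.23 and 3.57 in libraries 1 to 4. Set within each library, these bins gave 5.84, 2.44, 3.93 and 3.47. The part of depth and of Reg3b was otherwise not tested.

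Single members differed in how steep the gradient was. Apol9a was among the steepest, with 310.3 CPM at the tip against 13.96 CPM at the base of library 1, and a ratio of 22.2 there and of 40.3, 27.9 and 56.6 in libraries 2 to 4. Isg15 was at 750.0 CPM at the tip and 69.6 CPM at the base of library 1, a ratio of 10.8, against ratios of 4.12, 4.31 and 5.45 in the other libraries. With bins set within each library, the ratio of library 2 was 13.7 for Apol9a and 2.33 for Isg15. Irf9 had similar ratios of 2.02, 1.93, 1.71 and 2.22 in libraries 1 to 4. Bst2 had a ratio of 1.20 in library 1, against ratios of 0.54, 0.71 and 0.46 in libraries 2 to 4, where it was lower at the tip, and with bins set within each library it was lower in library 1 too, at 0.89. Of the 22 measured members, 22, 17, 19 and 19 were higher at the tip than at the base in libraries 1 to 4, against 46.2%, 43.3%, 44.2% and 40.8% of all measured genes. Library 1 was above the median of the other libraries by a ratio of 2.62 in the base bin and 4.79 in the tip bin for the sum of the 29.

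Along the gut the change was smaller. From the proximal to the distal of 3 bins, set by markers such as Fabp6 for the ileum, the 29 members summed to 1369, 1790 and 2270 CPM in library 1. They summed to 268.0, 302.5 and 399.5 CPM in library 2, to 312.6, 471.8 and 644.6 CPM in library 3 and to 286.2, 390.3 and 426.1 CPM in library 4. Of the 22 measured members, 22, 21, 22 and 21 were higher in the distal than in the proximal bin in libraries 1 to 4, against 61.8%, 66.9%, 59.7% and 66.9% of all measured genes. Ifit1bl1 changed more than the sum, with distal over proximal ratios of 6.07, 4.65, 4.22 and 3.81 in libraries 1 to 4.

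**Figure D3:**
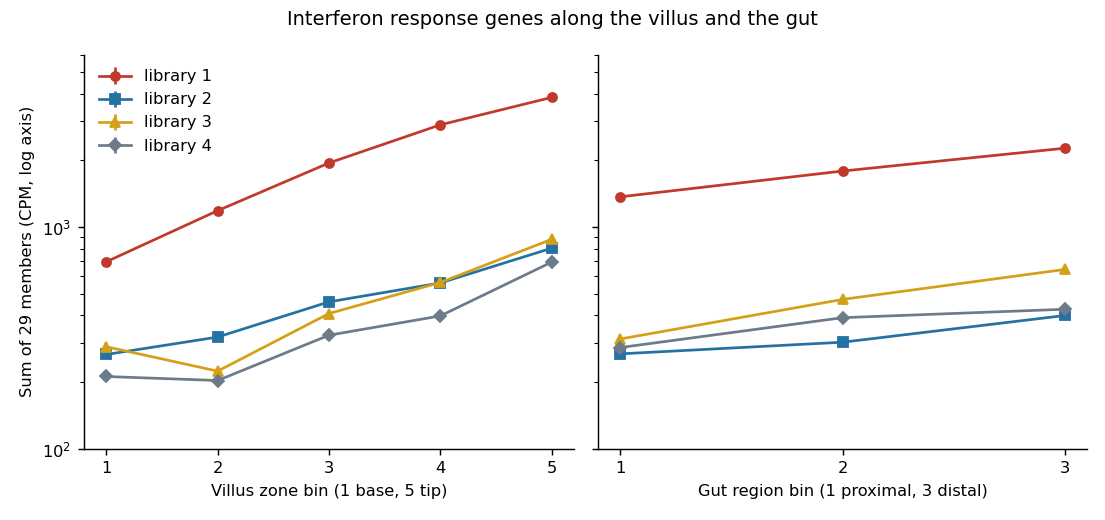
Symbols give the sum of the 29 members without Ifi27l2b (CPM, log axis) in bins of villus zone from base to tip and of gut region from proximal to distal, with 95% Poisson intervals that are mostly smaller than the symbols. Library 1 lies above the others in every bin, and every line is highest in the tip bin.

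Goblet cells, which secrete mucus, shared the pattern of enterocytes. In goblet cells 16 of 22 measured members were at least 2-fold higher in library 1 than the median of the other 3, against 0.582% of genes, and all 22 lay above that median, against 23.6% of genes. With the minimum set on libraries 2 to 4 alone, 13 of 19 were 2-fold higher, against 0.483% of genes. Isg15 was at 202.2 CPM in goblet cells of library 1, against 45.7, 54.6 and 15.8 CPM in libraries 2 to 4. Goblet cells numbered 207 in library 1 and 178 to 300 in the others. Within library 1, 2 of 29 measured members were 2-fold higher in goblet cells than in enterocytes (9.70% of genes) and 4 were lower (26.0% of genes). For such comparisons measured means a mean of at least 10 CPM over the class and enterocytes. A member could thus pass through either alone, as Oas2 did through goblet cells and Ifit3 through enterocytes. The 2 higher were Rsad2 and Oas2, and both were above their enterocyte level in every library. The 4 lower were Ifit3, Ddx58, Trim30a and Ifit1, at log2 ratios of -3.37, -1.41, -1.19 and -1.17. Rsad2 was at 107.8, 15.8, 38.6 and 10.2 CPM in goblet cells of libraries 1 to 4, against 22.4, 1.63, 5.13 and 4.35 CPM in enterocytes. Oas2 was at 21.7, 1.98, 3.16 and 0.243 CPM in goblet cells, against 2.24, 0.104, 0.248 and 0.0896 CPM in enterocytes, with 1 UMI behind the goblet value of library 4. Ifit3 went the other way, at 1.68, 0.660, 3.34 and 0 CPM in goblet cells, against 26.8, 3.74, 9.43 and 5.01 CPM in enterocytes.

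In stem and cycling cells the 29 members summed to less than in enterocytes in every library, and in enteroendocrine cells in libraries 1, 3 and 4. Within library 1, 0 of 25 measured members were 2-fold higher and 23 were lower in stem cells than in enterocytes (31.4% of genes higher and 18.0% lower). In cycling cells 0 of 25 were higher and 23 lower (33.0% and 16.3%), and in enteroendocrine cells 0 of 25 were higher and 21 lower (38.0% and 15.4%). Members could reach the minimum through enterocytes alone, as Ifit3 did at 0.78 CPM in stem cells against 26.8 CPM in enterocytes. The genes were also chosen as high in enterocytes, so these counts lean towards lower by design. The 29 members summed to 260.7, 223.4 and 356.2 CPM in stem, cycling and enteroendocrine cells of library 1, against 1824 CPM in enterocytes. In libraries 2 to 4 the sum was 34.6%, 25.04% and 31.6% of that of enterocytes in stem cells and 34.8%, 21.4% and 26.7% in cycling cells. In enteroendocrine cells it was 119.5%, 67.6% and 71.2%, so these cells were far below enterocytes in library 1 alone. In library 1 the median member stood at 12.4% of its enterocyte level in stem cells, where the enterocyte genes Fabp1, Apoa1 and Apoa4 stood at 8.33%, 7.44% and 7.96%. In library 1 the median was 12.0% in cycling cells, where these 3 genes stood at 4.36% to 10.2%, and 16.6% in enteroendocrine cells, where they stood at 2.67% to 4.75%. In stem cells 25, 26, 24 and 20 of the 30 members of libraries 1 to 4 stood above all 3 of these genes, and in cycling cells 18, 26, 18 and 17 did. No share of all genes stands beside these counts, so they are not read as a result about the members. The median measured gene was higher than in enterocytes of library 1, at log2 ratios of 0.31 in stem and 0.40 in cycling cells. In library 2 the median member stood at 27.6% in stem cells and 25.3% in cycling cells. The share that came from free RNA was not tested.

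Library 1 stood out less in these classes. Between libraries, 1 of 6 measured members was 2-fold higher in stem cells of library 1 than the median of the other 3 (0.280% of genes), 0 of 5 in cycling cells (0.244%) and 0 of 13 in enteroendocrine cells (1.99%). Of the measured members, 5 of 5 lay above the median of the other 3 in cycling cells, 6 of 6 in stem cells and 9 of 13 in enteroendocrine cells, against 51.5%, 52.4% and 52.0% of genes. Enteroendocrine cells numbered 50 in library 1 and 35 to 107 in the others. Irf7 was nearly level there, at 44.2 CPM in library 1 and 39.9, 42.1 and 41.9 CPM in libraries 2 to 4. Rsad2 was at 40.9 CPM in library 1, against 23.3, 25.3 and 24.2 CPM in the others.

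T cells of the epithelium, which were numerous only in libraries 1 (307 cells) and 3 (1191 cells), differed less between these libraries than enterocytes did. The 29 members without Ifi27l2b summed to 908.4 and 641.3 CPM in T cells of libraries 1 and 3. In enterocytes of the same libraries they summed to 1824 and 486 CPM. In T cells 3 of 19 measured members were 2-fold higher in library 1 than in library 3, against 0.410% of genes, and the median log2 ratio was 0.46. Isg15 was at 96.8 CPM in T cells of library 1 and at 52.1 CPM in those of library 3. Set against enterocytes of the same library, 0 of 26 measured members were 2-fold higher in T cells of library 1 (42.6% of genes) and 13 were lower (21.9%). Here too a member could reach the minimum through enterocytes alone. In library 3, 7 of 20 were higher (39.9%) and 4 lower (21.5%). Trim30a was at 65.6 and 50.3 CPM in T cells of libraries 1 and 3, against 38.4 and 4.40 CPM in enterocytes. Zbp1 was at 60.8 and 42.9 CPM in T cells of these libraries, against 74.8 and 9.15 CPM in enterocytes. Ifi27l2b was low in both, at 131.9 and 132.3 CPM, against 1870 and 1144 CPM in enterocytes. The enterocyte genes Fabp1, Apoa1 and Apoa4 stood at 3.47% to 11.4% of their enterocyte level in T cells of library 1. In library 3 they stood at 5.59% to 14.0%, and the part of free RNA in the T cell levels was not tested.

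**Figure D4:**
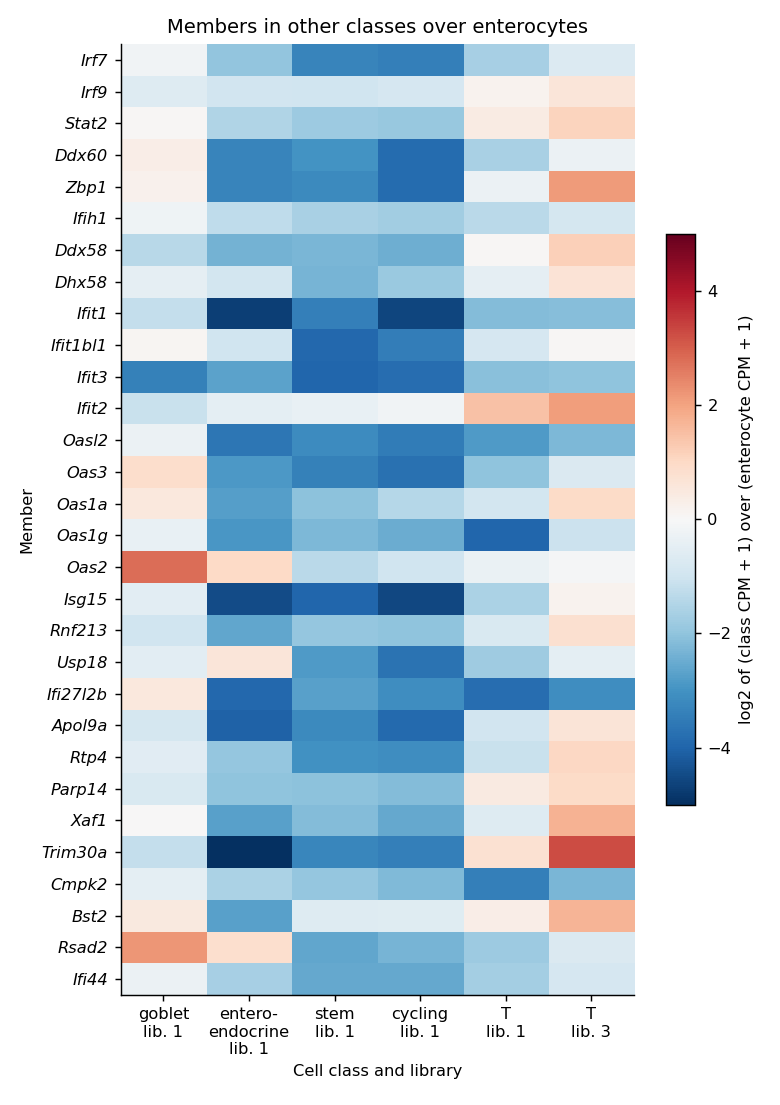
Colour gives the log2 of a member's CPM plus 1 in a class over that in enterocytes of the same library, for goblet, enteroendocrine, stem, cycling and T cells of library 1 and T cells of library 3. Goblet cells differ most from enterocytes for Oas2 and Rsad2 (red) and Ifit3 (blue), and stem and cycling cells are blue for nearly all members.

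Over single enterocytes the members varied together within each library. Among members at 10 CPM or more in the thinned cells, the median Pearson correlation of a pair was 0.12, 0.08, 0.12 and 0.09 in libraries 1 to 4, over 378, 91, 153 and 91 pairs. Correlations of members with other genes in the same range of levels had medians between -0.0021 and -0.0005, and 1.14% to 2.44% of those lay above the median of the member pairs. All but 1, 4, 1 and 1 of the member pairs were above 0 in libraries 1 to 4. Cells share a library, depth was fixed by thinning, and weak correlations in sparse counts are given as description only.

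Ifit1 and Isg15 were the pair with the highest or near highest correlation in every library, at 0.49, 0.44, 0.63 and 0.53 in libraries 1 to 4. Both had a UMI in 1337 cells of library 1, against 67, 110 and 78 cells of libraries 2 to 4. In library 3 Ifit1 with Ifit3 reached 0.63 as well. Isg15 had a median correlation with the other members of 0.25, 0.15, 0.29 and 0.15 in libraries 1 to 4, the highest of all members in libraries 1 to 3. Ifit1 had 0.24, 0.12, 0.26 and 0.19, the highest in library 4 and the sixth in library 2, where Oasl2, at 0.15, came after Isg15. Irf9 was the lowest in all 4 libraries, at 0.04, 0.01, 0.04 and 0.02 in libraries 1 to 4. With correlations taken within bins of villus zone and averaged, the medians over pairs were 0.08, 0.07, 0.10 and 0.08 in libraries 1 to 4.

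**Figure D5:**
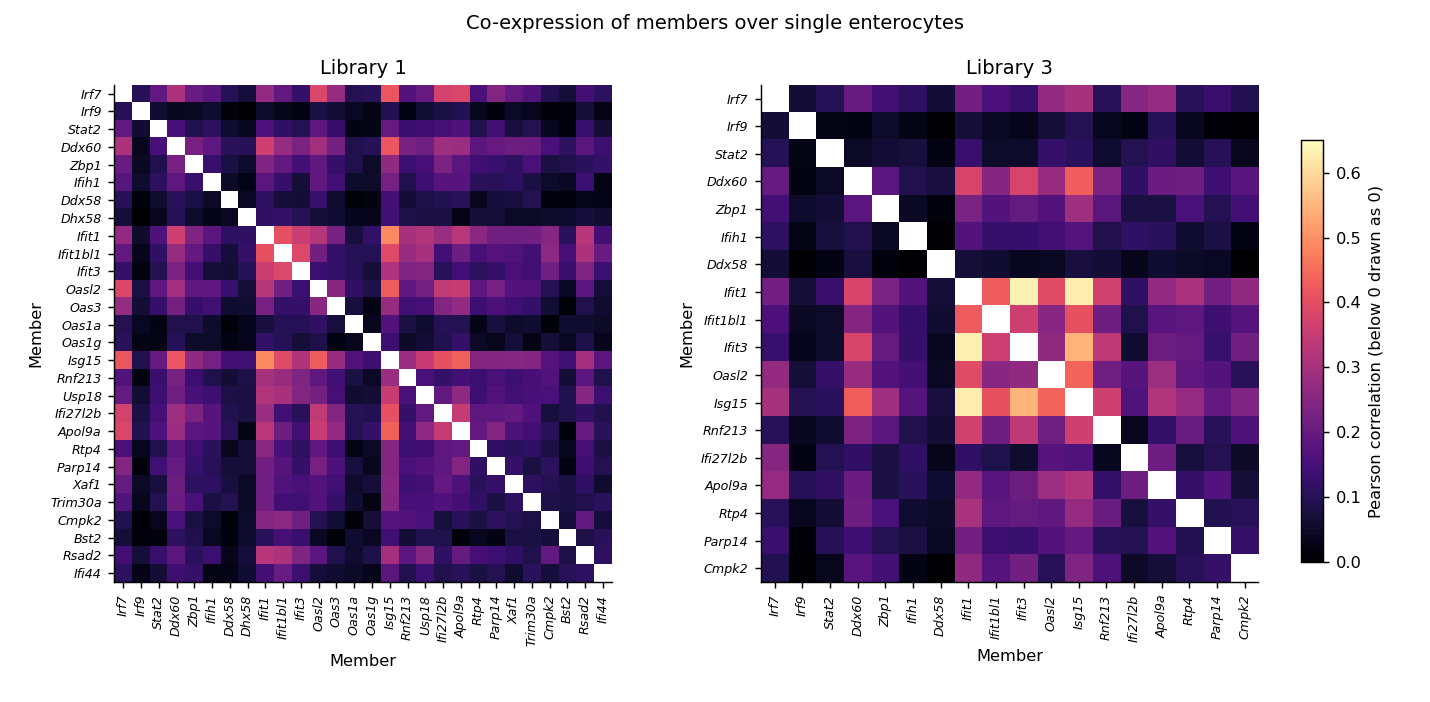
Each square is the Pearson correlation of a pair of members over single enterocytes thinned to 5000 UMIs, in library 1 (28 members) and library 3 (18 members). The brightest squares join Isg15, Ifit1 and Ifit3 in library 3 and Isg15 with Ifit1 in library 1, and the row of Irf9 is dark in both.

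The genes outside the list whose counts followed the sum of the 29 members most closely included apolipoprotein and MHC class I genes. Apoa1, B2m, Cdhr2, H2-K1 and Selenop were among the 10 highest in all 4 libraries. H2-K1, a heavy chain of MHC class I, had a Pearson correlation of 0.67, 0.30, 0.44 and 0.35 with the sum in libraries 1 to 4, and Apoa1, an apolipoprotein of enterocytes, had 0.62, 0.26, 0.42 and 0.31. Within bins of villus zone the values were 0.33, 0.21, 0.21 and 0.18 for H2-K1 and 0.27, 0.15, 0.22 and 0.17 for Apoa1. Oasl1, an interferon-induced relative of Oasl2, joined Apoa1, B2m and H2-K1 among the 10 highest of all 4 libraries when bins were kept apart. Eef1a1, a translation elongation factor, was at the other end, at -0.65, -0.32, -0.41 and -0.35.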

How the data were processed

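Per the submitters' processing notes, the sources name Cell Ranger 6.1.1 and the mm10 build, and the authors deposited 1 table of raw UMI counts per gene and barcode for 4 libraries. Barcodes were kept from 500 UMIs and 250 genes upwards, with a mitochondrial share of up to 25%. Library totals ran between 173564399 and 209357877 UMIs over all barcodes. Classes came from marker gates whose thresholds were set after seeing the distribution of marker shares, and 624 kept cells lay close to the enterocyte gate. Doublets were not removed, and leaving out the 6% of cells with the highest doublet score was an alternative.

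CPM values are the UMI counts of a gene summed over a class in 1 library, scaled by that class's sum. A library's log2 ratio compares its CPM plus 1 with the median of the other 3 libraries plus 1, for genes at a mean of at least 10 CPM. Cells were thinned to 5000 UMIs for shares and correlations. With 1 pool per library and no map from libraries to diets, no test was run. The scripts were tested on simulated data. Intervals cover counting error only. Python 3.11.15, numpy 2.4.6, scipy 1.17.1, pandas 2.3.3, scanpy 1.11.5 and matplotlib 3.10.9 were used. Promoter windows came from RefSeq and gene places from GENCODE M21, both on GRCm38.

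The members and all gene lists were chosen with earlier results of these data known. All 30 members are named. Other genes named are the 10 with the highest correlation with the summed members in each library, the 10 with the highest log2 ratio in library 1, and genes of the lists of ligands, receptors, sensors, transcription factors, regulators, other interferon-stimulated genes and interferon gamma GTPases. Eef1a1, Igtp and the class comparators Fabp1, Apoa1 and Apoa4 are named beside these. Alternatives changed the prior, the minimum, the cell filters, the denominator, the cells used, the thinning and the bins.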

Additional observations from a re-analysis of the deposited data

How the results depend on the processing

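No paired analysis was possible because no library could be tied to a sample, so neither the replicate block nor DESeq2 for IPA against con was run. Of 208 recomputed values 168 stayed within 1.5 times of those reported for counts and ratios, within the counting interval for shares and within 0.02 for correlations. Of 510 recomputed log2 ratios of single members in library 1, 228 moved outside their counting interval and none changed sign. The count of members 2-fold higher in library 1, 17 of 22 (0.688% of genes), was 16 with a prior of 10 CPM. It was 25 of 30 with no minimum (0.437% of genes) and 8 of 11 with a minimum of 30 CPM. It was 17 to 19 when another library was left out of the reference. Of the 30 members, 21 were at least 2-fold higher in library 1 under all 17 alternatives, and 29 were higher, the exception being Ifit2, which had a value of 0 without cells holding immune UMIs. Where no share of all genes stands beside a count here, the count is not read as a result about the members.

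Counts for libraries 2 to 4 were less stable. With a prior of 10 CPM, 0 members were higher and 0 lower in library 2, 0 lower in library 3 and 0 lower in library 4. With a minimum of 30 CPM, 0 were higher in library 2, 0 lower in library 3 and 1 lower in library 4. In library 2, 5 were lower with up to 50% mitochondrial UMIs, 0 with equal weight to zone bins and 6 with each cell at equal weight, where 0 were higher in library 2 and 0 lower in library 3. Leaving out 1 reference library gave 0 to 1 higher and 1 to 17 lower members in library 2, 0 to 1 higher and 0 to 12 lower in library 3, and 2 to 16 lower in library 4. The cause of these shifts was not tested. No share of all genes stands beside the counts for libraries 2 to 4 here, so they are not read as results about the members.

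With a prior of 10 CPM, 4 members were higher in T cells than enterocytes of library 3, and 0 in stem cells of library 1 over the other 3. The share of enterocytes with a member was 88.0%, 41.5%, 53.9% and 44.4% in libraries 1 to 4 when thinned to 2000 UMIs, and 99.1%, 87.5%, 90.3% and 88.3% at 10000 UMIs. The median correlation was 0.23, 0.18, 0.24 and 0.18 without thinning, where depth differs between cells. In alternatives chosen after seeing the data, it was 0.083 within zone bins in library 1, and the ratio of tip to base in library 2 was 1.83 with bins set within each library. Without barcodes shared between libraries, also chosen after seeing the data, 17 members were higher in library 1. No share of all genes stands beside the counts of members in this paragraph, so they are not read as results about the members. Depth limits the members below 10 CPM and the small classes.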
